A study of Rattus norvegicus with 78 samples.

Results

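Hippocampal gene expression of young rats 21 days after water maze training was set against that of young rats that were never trained, to ask whether any transcript still carried a mark of the training. The comparison used 19 of the 78 arrays of the series: the 9 arrays labelled 21PT-Y and the 10 labelled NT-Y, chosen by these group names alone. All were male F344 rats, an inbred strain, of 4 to 6 months. The 21PT-Y rats had learned to find a hidden platform in the Morris water maze, a swimming test of place memory, and were taken 21 days after training. NT-Y rats had stayed in their home cage, so handling, swimming and learning cannot be told apart in any difference between the groups. Tissue was the dorsal left hippocampus, and each array held the RNA of 1 rat. For comparison, 10 further young rats were taken on day 5, the last day of training (5T-Y), and of the aged rats, 24 to 26 months old, 20 were taken on day 5, 19 at day 21 and 10 without training. The trained young rats of day 21 had reached the platform after 10.4 s (median, 4.62 to 19.9 s, mean of training days 3 to 5), and those of day 5 after 9.64 s (4.85 to 24.2 s).

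New memories depend on the hippocampus, and their early phase needs transcription. Activity through glutamate receptors and calcium first induces immediate early genes such as Arc, Egr1 and Fos, whose transcripts are short-lived. Over later days memories are thought to be held by changes in synapses and circuits, which may or may not leave a stable transcript level in the whole tissue. Hippocampal cells also carry the circadian clock, in which Clock and Bmal1 drive Per genes and output genes such as Dbp, and they respond to the glucocorticoids released by stress.

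No transcript passed the test between trained and untrained young rats at day 21. Of 10371 tested probe sets, the short oligonucleotide groups that each report 1 transcript, 0 (0%) had an adjusted p under 0.05 (limma, Benjamini-Hochberg adjustment), and the smallest adjusted p was 0.812. At an unadjusted p under 0.05 there were 253 probe sets (2.44%), 136 with a higher (1.31%) and 117 with a lower (1.13%) level after training. If no probe set differed, about 519 would be expected at that level. In 0 probe sets (0%) were the 2 groups free of overlap. All differences below are log2 differences of signal plus 1, where 1 is a doubling, given with the standard error of the fit.

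The measurements set a bound on what could have been missed. The 95% interval of a difference reached 0.17 to either side in the median probe set, and between 0.11 and 0.29 for the 10th to the 90th percentile. For 10042 probe sets (96.8%) the whole interval lay within a 1.5-fold change in either direction, and for 10318 (99.5%) within a doubling or a halving. With a term for the fluidics module, which was confounded with the groups, these numbers were 9032 (87.1%) and 10161 (98%). Among probe sets whose mean exceeded the filter level (log2 7.32, the 40th percentile of array signal in untrained rats) in both groups, the largest difference was 0.50, that of Calb2. The median difference over all tested probe sets was 0.00017. Since whole tissue was measured, fewer cells of a type and less RNA per cell cannot be told apart in any value here.

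**Figure D1:**
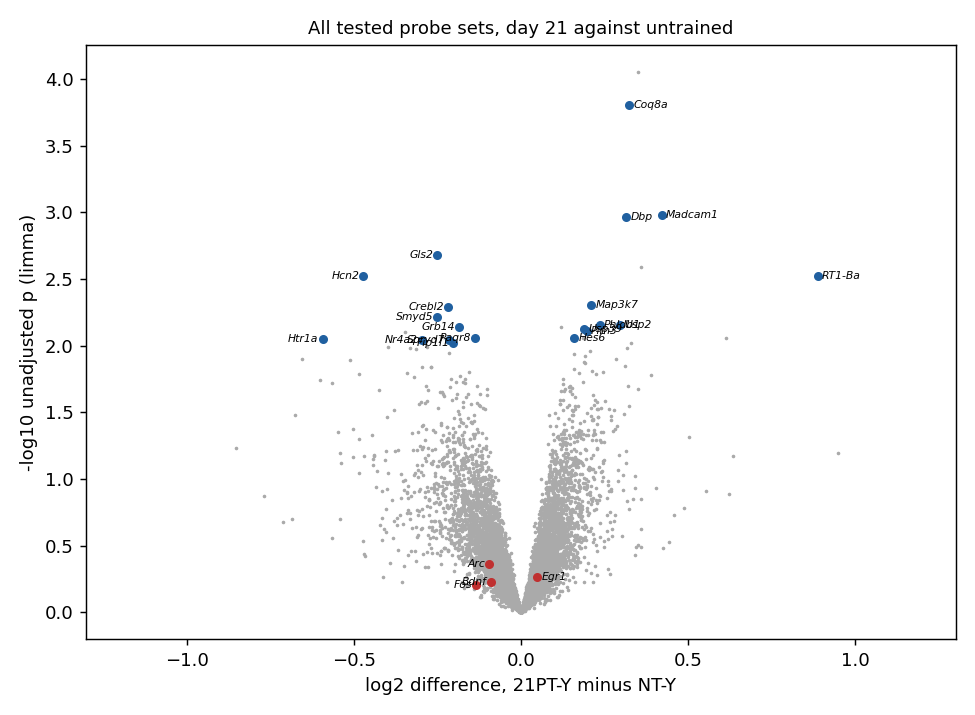
Each grey point is 1 of the 10371 tested probe sets, with its log2 difference between trained rats of day 21 and untrained young rats on the x axis and the negative log10 of its unadjusted p on the y axis. Blue points mark the 10 genes of smallest p in each direction and red points Arc, Egr1, Fos and Bdnf; the smallest adjusted p of all points was 0.812.

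Means of the array quality measures differed between the groups by less than the spread between arrays. The log2 ratio of the 3' to the 5' Gapdh control was 0.334 ± 0.12 (SD, n = 9) at day 21 and 0.275 ± 0.135 (SD, n = 10) in untrained rats, and that of beta-actin 0.988 ± 0.377 and 0.798 ± 0.331. Exact permutation tests over the arrays (2-sided) gave adjusted p between 0.546 and 0.588 for these ratios, the median signal and the mean correlation with other arrays, 4 measures in all. For beta-actin the difference of medians was 0.408, above either SD (adjusted p = 0.543 in the same test on medians). Levels of neuron, glia, vessel and red cell markers overlapped between the groups, and 0 of the measured markers had an unadjusted p under 0.05. Median differences of the fixed markers were 0.02 for neurons, -0.17 for endothelium, 0.18 for choroid plexus and 0.21 for red cells. The summed signal of neuron markers ran from log2 14.2 to 14.5 at day 21 and from 14.2 to 14.4 in untrained rats, and that of choroid plexus markers, a tissue next to the hippocampus, from 8.59 to 9.27 and from 8.36 to 9.04. A confounder lies in the array records. All 10 NT-Y arrays were processed in fluidics module 1, while 8 of the 21PT-Y arrays were in module 3 and 1 in module 2. Module and training cannot be told apart within this pair. With module as a term, estimated through the other groups, 0 probe sets passed as well, and the median standard error of a difference went from 0.085 to 0.131. The first letter of the animal code in the sample titles was partly confounded with the groups too. Codes of 21PT-Y began with K, L or N and those of NT-Y with L, M or N. With this letter as a term 0 probe sets passed.

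Genes that differed on day 5 in young rats were followed first. On day 5, 7 of 10371 probe sets (0.0675%) from 6 genes passed against untrained rats, 6 higher (0.0579%) and 1 lower (0.00964%). Of these genes Gpd1, Sult1a1, Per2 and Ntng1 lie outside the rule by which genes were named and were chosen after their values were seen. The day 5 and the day 21 differences share the untrained arrays, so their values stand side by side only. Day 5 arrays were in fluidics modules 2 (9 arrays) and 4 (1 array), and the untrained arrays all in module 1. Module and training cannot be told apart on day 5 either. With fluidics module as a term, 0 of the 7 passed on day 5, while the log2 differences of day 5 were 0.44 for Homer1, 0.70 and 1.53 for Gpd1, 0.54 for Sult1a1, 0.36 for Per2, 0.49 for Dbp and -0.59 for Ntng1, beside the wider standard errors given above.

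Homer1, a scaffold of the postsynaptic density, had a log2 signal of 9.20 to 9.87 (median 9.74) in untrained rats, 10.0 to 10.5 (10.2) on day 5 and 9.01 to 9.72 (9.45) at day 21. The day 5 arrays all lay above both other groups, while day 21 and untrained arrays overlapped. Its day 5 difference was 0.59 (adjusted p = 0.00719) and its day 21 difference -0.30 ± 0.12 (unadjusted p = 0.0146), which did not pass. Directly compared, day 21 lay 0.88 below day 5 (adjusted p = 1.37e-06). The other 4 Homer1 probe sets had day 21 differences of -0.04, -0.08, -0.21 and -0.14. Their day 5 differences were, in the same order, 0.05, 0.20, 0.08 and -0.28, and none of them passed on day 5.

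Gpd1, the cytosolic glycerol 3-phosphate dehydrogenase that links glycolysis to lipid synthesis, ran from 9.27 to 9.72 (median 9.41) in untrained rats, from 10.0 to 10.8 (10.3) on day 5 and from 9.23 to 9.87 (9.49) at day 21. No day 5 array overlapped with either other group. The log2 difference was 0.90 on day 5 (adjusted p = 0.00084) and 0.04 ± 0.16 at day 21. A dimmer Gpd1 probe set differed by 1.85 on day 5 (adjusted p = 0.0324) and by -0.05 ± 0.42 at day 21.

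Sult1a1, a sulfotransferase of phenolic compounds, had 7.97 to 8.73 (median 8.41) in untrained rats, 8.62 to 9.15 (8.92) on day 5 and 8.03 to 8.41 (8.27) at day 21. Its level on day 5 was 0.52 above that of untrained rats (adjusted p = 0.00719), and its day 21 difference was -0.14 ± 0.11. Every day 21 array lay below every day 5 array.

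Ntng1, a membrane-anchored adhesion molecule of axons, was the 1 gene that passed with a lower level on day 5. It ran from 7.66 to 7.97 (median 7.79) in untrained rats, from 7.06 to 7.51 (7.38) on day 5 and from 7.64 to 8.00 (7.81) at day 21. The day 5 difference was -0.46 (adjusted p = 0.00078) and that of day 21 was 0.00 ± 0.08, with a 95% interval from -0.16 to 0.16.

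**Figure D2:**
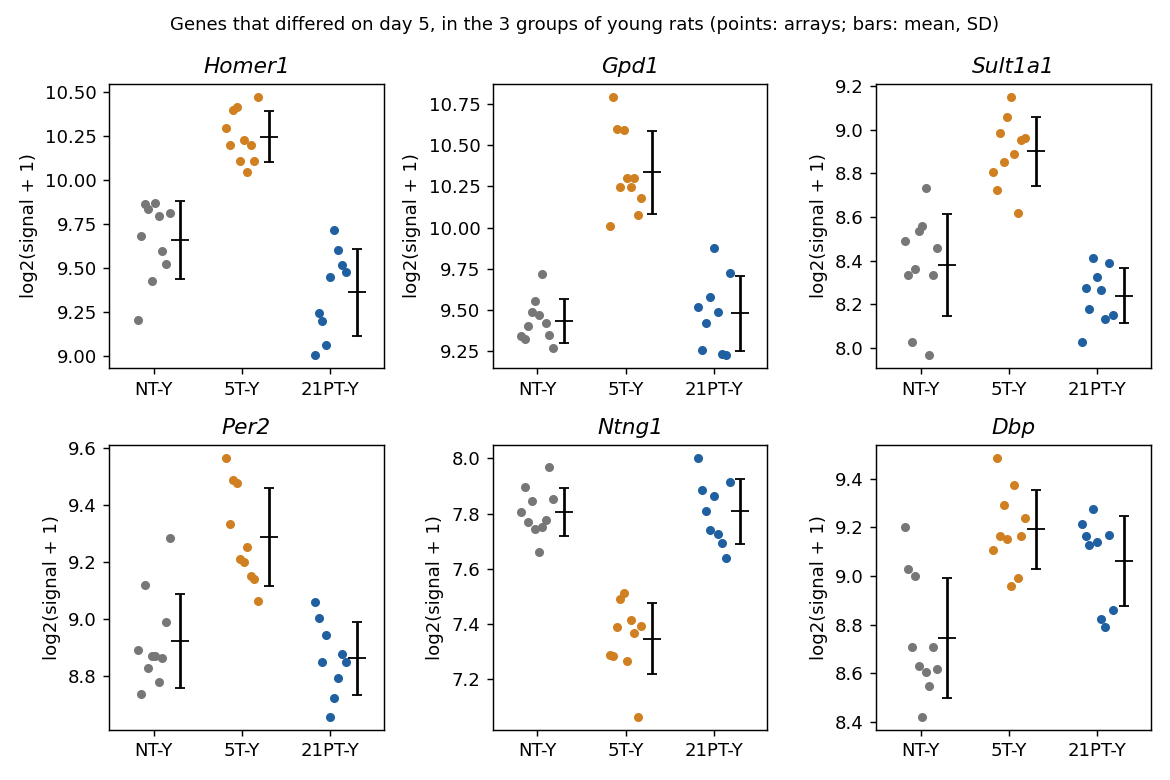
Log2 signal of the 6 genes that passed on day 5 (y axis), 1 point per array, in untrained young rats, on day 5 and at day 21 (x axis); bars give mean and SD. Day 21 arrays overlap with untrained arrays for all 6 genes, and for Dbp the day 21 mean of 9.06 lies near the day 5 mean of 9.19.

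Per2, a repressor of the clock, ran from 8.74 to 9.28 (median 8.87) in untrained rats, from 9.06 to 9.56 (9.23) on day 5 and from 8.66 to 9.06 (8.85) at day 21. Its log2 difference was 0.36 on day 5 (adjusted p = 0.0324) and -0.06 ± 0.08 at day 21.

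Between day 21 and day 5, 10 probe sets (0.0964%) from 9 genes passed, 9 lower (0.0868%) and 1 higher (0.00964%) at day 21. They were those of Homer1, Gpd1, Sult1a1, Per2 and Ntng1 and 4 further genes, of which Usp54 and Kif26b were also named after their values were seen. Hspb1 and Cryab, small heat shock proteins, were 1.18 and 0.42 lower at day 21 than on day 5 (adjusted p = 0.00927 and 0.0217). The Hspb1 probe set was dim, with means of 6.86 on day 5 and 5.68 at day 21, both below the filter level. Usp54 was 0.29 lower and Kif26b 0.42 lower (adjusted p = 0.0204 for both). Against untrained rats these 4 differed at day 21 by -0.44 ± 0.24, -0.18 ± 0.09, -0.06 ± 0.06 and -0.15 ± 0.09 and did not pass. Most day 21 arrays (8) were in module 3 and most day 5 arrays (9) in module 2. With module as a term 3 of the 10 probe sets passed, those of Homer1 (adjusted p = 0.00157), Sult1a1 (0.00939) and Ntng1 (0.0464). Differences of the other 7 with that term were -0.87 and -1.65 for Gpd1, -0.46 for Per2, -1.19 for Hspb1, -0.36 for Cryab, -0.36 for Usp54 and -0.51 for Kif26b. Without 21PT-Y replicate 3, 6 passed.

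Dbp was the day 5 gene with the highest level relative to untrained rats at day 21. It encodes a transcription factor of the clock's output, and its log2 signal ran from 8.42 to 9.20 (median 8.67) in untrained rats, from 8.96 to 9.49 (9.16) on day 5 and from 8.79 to 9.27 (9.14) at day 21. Day 21 and untrained arrays overlapped, the 3 highest untrained arrays lying within the day 21 range. The difference was 0.45 on day 5 (adjusted p = 0.00948) and 0.32 ± 0.09 at day 21, with a 95% interval from 0.13 to 0.50. At day 21 its unadjusted p was 0.00108 and it did not pass over all probe sets. Day 21 and day 5 differed by -0.13 (adjusted p = 0.787). On each of the 9 scan days that held 1 array of each group, the day 21 array was the higher one. Of all tested probe sets 10 (0.0964%) showed this pattern and 11 (0.106%) the reverse. How often it arises without a group difference was not tested. Genes described with it here had a small p in the same arrays, so the pattern is no independent support. Within the 3 chip lots the Dbp difference was 0.19, 0.35 and 0.35. In aged rats the day 21 difference of Dbp was -0.02, and the young difference exceeded the aged one by 0.33 (unadjusted p = 0.00756), which did not pass either. Time of day at tissue collection was not given in the sources used here.

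Dbp protein binds the D-box, a short element of clock gene promoters. The upstream sequences of Dbp and Per2 are shown because these 2 genes of the same pathway both passed on day 5 and had day 21 differences of 0.32 and -0.06. Both are the 250 bases before the gene start, 5′ to 3′ on the gene's strand, from RefSeq on build GRCr8; Dbp at chr1:105312006-105312255 (plus strand) and Per2 at chr9:99496994-99497243 (minus strand). Capitals mark a D-box, searched as TTATGTAA on both strands.
Dbp: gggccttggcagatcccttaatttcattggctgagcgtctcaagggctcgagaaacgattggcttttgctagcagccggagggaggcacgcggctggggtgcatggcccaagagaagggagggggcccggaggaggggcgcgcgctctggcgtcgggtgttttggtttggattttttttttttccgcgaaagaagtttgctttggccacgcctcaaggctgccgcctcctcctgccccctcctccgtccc
Per2: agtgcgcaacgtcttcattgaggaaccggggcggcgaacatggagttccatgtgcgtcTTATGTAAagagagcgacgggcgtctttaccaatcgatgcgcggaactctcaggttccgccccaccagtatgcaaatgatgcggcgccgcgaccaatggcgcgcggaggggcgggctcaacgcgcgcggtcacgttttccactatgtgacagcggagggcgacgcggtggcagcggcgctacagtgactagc
Per2 held 1 match and Dbp none. Of all 33469 promoters of this length 0.828% held a match. The E-box CACGTG, found in 5.59% of promoters, and the cyclic AMP element TGACGTCA, found in 1.59%, had no exact match in either window. Variants of these elements were not searched, so the absence holds for the exact sequences only. The Per2 window does hold cacgtt, which differs from CACGTG in its last base.

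Other clock genes at day 21 were mixed. Of 24 listed, 16 were measured, with a median difference of -0.00042, 8 of them above 0, and 2 had a higher level at an unadjusted p under 0.05, Dbp and Nr1d2. Over all tested probe sets the median was 0.00017, so about as many lay above 0 as below. Counts above 0 in this and the later lists were not tested. Nr1d2, a repressor of Bmal1, had a log2 level of 9.39 to 9.95 (median 9.60) untrained and 9.54 to 10.0 (9.80) at day 21, a difference of 0.19 ± 0.08 that was 0.049 with the module term (unadjusted p = 0.672). A second Nr1d2 probe set differed by 0.02. Usp2, a deubiquitinase under clock control, was among the 10 genes of smallest p with 0.30 ± 0.11, and 0.15 at a second probe set. Bmal1 had a difference of -0.18 ± 0.10, Clock of -0.17 ± 0.12 and Per1 of 0.01 ± 0.19.

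Immediate early genes gave no passing member. Of 34 listed, 22 were measured, 0 passed, 5 had a difference above 0, and the list's median was -0.08 (-0.17 with the module term). Arc, which encodes a cytoskeletal protein of active dendrites, had a log2 level of 9.86 to 10.2 (median 9.96) in untrained rats and 9.73 to 10.3 (9.84) at day 21, a difference of -0.09 ± 0.12. For Egr1, a zinc finger transcription factor, the levels were 11.1 to 11.3 (11.2) and 10.8 to 11.4 (11.3), with a difference of 0.05 ± 0.08 that turned to -0.21 with the module term. These 2 pairs of ranges overlapped almost fully. Fos, a subunit of the AP-1 factor, differed by -0.13 ± 0.27 and spread widely in both groups. Nr4a2, an orphan nuclear receptor induced by activity, was the 1 member with an unadjusted p under 0.05 (0.0091). It ran from 8.44 to 9.16 (median 8.79) in untrained rats and from 8.04 to 8.81 (8.51) at day 21, a difference of -0.30 ± 0.11, and was higher at day 21 on 1 of 9 scan days. Nr4a3 differed by -0.15 ± 0.10, Dusp6, a phosphatase of ERK, by -0.13 ± 0.07 with other probe sets at -0.10 and 0.07, and Ptgs2, the inducible cyclooxygenase, by -0.20 ± 0.13.

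Growth factor and synaptic lists had medians near 0. Of 19 measured growth factor genes 13 had a difference above 0, with a median of 0.04, and 0 reached an unadjusted p under 0.05. Bdnf, a neurotrophin required for lasting potentiation, ran from 8.01 to 8.75 (median 8.49) in untrained rats and from 7.89 to 8.79 (8.41) at day 21, a difference of -0.09 ± 0.17. Cntf differed by 0.17 ± 0.08 and Nrn1, a plasticity factor also called neuritin, by -0.11 ± 0.07. The 28 measured genes of glutamate receptors and their scaffolds had a median of -0.04, with 10 above 0. Gria2, the AMPA receptor subunit that bars calcium, differed by -0.11 ± 0.07, and Grin2c, an NMDA receptor subunit, by 0.17 ± 0.09. Of 23 genes of vesicles and release 11 were above 0, and 1 had an unadjusted p under 0.05: Vamp2, the vesicle SNARE of synapses, at 0.16 ± 0.08, while a second probe set too dim for the test gave -0.15. Syp, a vesicle membrane protein, differed by 0.10 ± 0.06. The 28 measured kinases and CREB pathway genes lay between -0.07 and 0.11, with a median of 0.03 that turned to -0.02 with the module term and to -0.0093 when all probe sets of a gene were averaged. Among 42 genes of axon growth and adhesion 20 were above 0, and Gap43 and Stmn2, growth cone proteins, differed by 0.10 ± 0.06 and 0.11 ± 0.06, with a second Stmn2 probe set at -0.08.

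Ion channels and receptors held 2 of the genes with small unadjusted p. Hcn2, a channel that carries the hyperpolarization-activated current, ran from 9.24 to 10.1 (median 9.74) in untrained rats and from 8.97 to 9.58 (9.19) at day 21. Day 21 arrays lay at the lower end. On 0 of 9 scan days was the day 21 array the higher one, as in 11 of all tested probe sets (0.106%). The difference was -0.47 ± 0.15 (unadjusted p = 0.00301), and it was -0.35, -0.39 and -0.66 within the 3 chip lots. In aged rats the corresponding value was -0.01. Htr1a, a serotonin receptor of CA1 neurons, differed by -0.59 ± 0.22 (unadjusted p = 0.00896). Its levels ran from 6.92 to 8.14 (median 7.54) and from 4.45 to 7.81 (7.09), and without the lowest array, 21PT-Y replicate 5, the difference was -0.29 (unadjusted p = 0.117). The 24 measured ion channels had a median of -0.07 with 6 above 0, and the 21 receptors for monoamines and acetylcholine a median of -0.03 with 6 above 0. Calb2, a calcium buffer of interneurons that also marks thalamic neurons, differed by 0.50 ± 0.25. It ran from 8.03 to 9.76 (8.46) untrained and from 8.36 to 9.99 (9.17) at day 21. With the letter of the animal code, whose meaning the sources used here do not give, as a term the Calb2 difference was -0.014. The list of thalamic, cortical and striatal neuron genes had a median of 0.07 in 14 measured genes, which turned to -0.05 where only bright probe sets were kept.

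Genes of smallest p were next looked at irrespective of their role, as values only, since none passed. Among the 10 with higher values, Coq8a, a kinase-like protein of coenzyme Q synthesis, led, from 7.58 to 8.16 (median 7.82) in untrained rats and from 7.96 to 8.57 (8.15) at day 21. The groups overlapped, the difference was 0.32 ± 0.08 (unadjusted p = 0.000157, adjusted p = 0.812), and day 21 was higher on 7 of 9 scan days. Madcam1, an adhesion molecule of vessels, differed by 0.42 ± 0.12 with means of 6.88 untrained and 7.30 at day 21, both below the filter level. Map3k7, a kinase of the TGF-beta and NF-kappaB pathways, Phldb1, Usp39, Pim3 and Hes6 differed by 0.21, 0.24, 0.19, 0.20 and 0.16. Among the 10 with lower values, Gls2, a mitochondrial glutaminase, ran from 8.63 to 9.16 (8.90) and from 8.26 to 8.99 (8.74). It was lower at day 21 on all 9 scan days, as were 11 of all tested probe sets (0.106%). Its difference was -0.25 ± 0.08 (unadjusted p = 0.00209). Crebl2, Smyd5, Grb14, Paqr8, Spryd7 and Fip1l1 differed by -0.22, -0.25, -0.19, -0.14, -0.21 and -0.20. Crebl2 and Paqr8 had second probe sets at -0.03 and -0.47.

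Of 37 named probe sets with an unadjusted p under 0.05, 17 were over it without some single array and 30 with the module term. With that term standard errors were wider, and some differences were smaller. The 6 that stayed under 0.05 in both were those of Coq8a, Dbp, Madcam1, Homer1, Hcn2 and Spryd7. Most of these were named for a small p in the same arrays, so their staying is no independent support. Over all tested probe sets 287 were under 0.05 with the module term, beside 253 without it. Without 1 array the 17 were Vamp2, Htr1a, Calb2, Hsd11b1, Hspa4, Dnajb9, Herpud1, Itgam, Fads2, Ebp, Ptp4a3, Grb14, Tpm1, Prdx6, Ccdc117, Nqo1 and Slc6a9. With the module term differences moved by over 1.5 times, downwards in size for Vamp2 (0.10), Nr1d2 (0.049), Hspa4 (0.039), Pim3 (0.042), Hes6 (0.089), Grb14 (-0.084) and Tpm1 (0.065), and upwards for Homer1 (-0.46), Madcam1 (0.63) and Nqo1 (0.33).

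RT1-Ba, an MHC class II alpha chain, had the largest of these values, 0.89 ± 0.29 (unadjusted p = 0.00297), at a dim probe set. Its log2 signal ran from 4.30 to 7.06 (median 6.09) in untrained rats, from 5.62 to 7.69 (6.87) on day 5 and from 5.76 to 7.41 (7.06) at day 21. The day 21 array was the higher one on all 9 scan days, as in 10 of all tested probe sets (0.0964%). Signal also moved with the chip lot. In lot 1 the untrained arrays had 4.30 to 4.47 and the day 21 arrays 5.76 to 6.09. Lots 2 and 3 together held untrained arrays of 5.56 to 7.06 and day 21 arrays of 6.85 to 7.41. Within the lots the difference was 1.53, 0.54 and 0.77, and lot 1 held the widest gap. With chip lot as a term the difference was 0.88 (unadjusted p = 0.00141), and with the module term 0.83 (unadjusted p = 0.0715). A second RT1-Ba probe set, too dim for the test, differed by 0.86, from 3.66 to 6.80 untrained and from 5.39 to 6.76 at day 21. Among genes of the same pathway RT1-Bb, the beta chain of the same molecule, differed by -0.11 ± 0.25, RT1-Da by 0.07 ± 0.19, and Cd74, the invariant chain, by 0.03 ± 0.18. Of 15 measured antigen presentation genes 7 were above 0, with a median of -0.02.

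**Figure D3:**
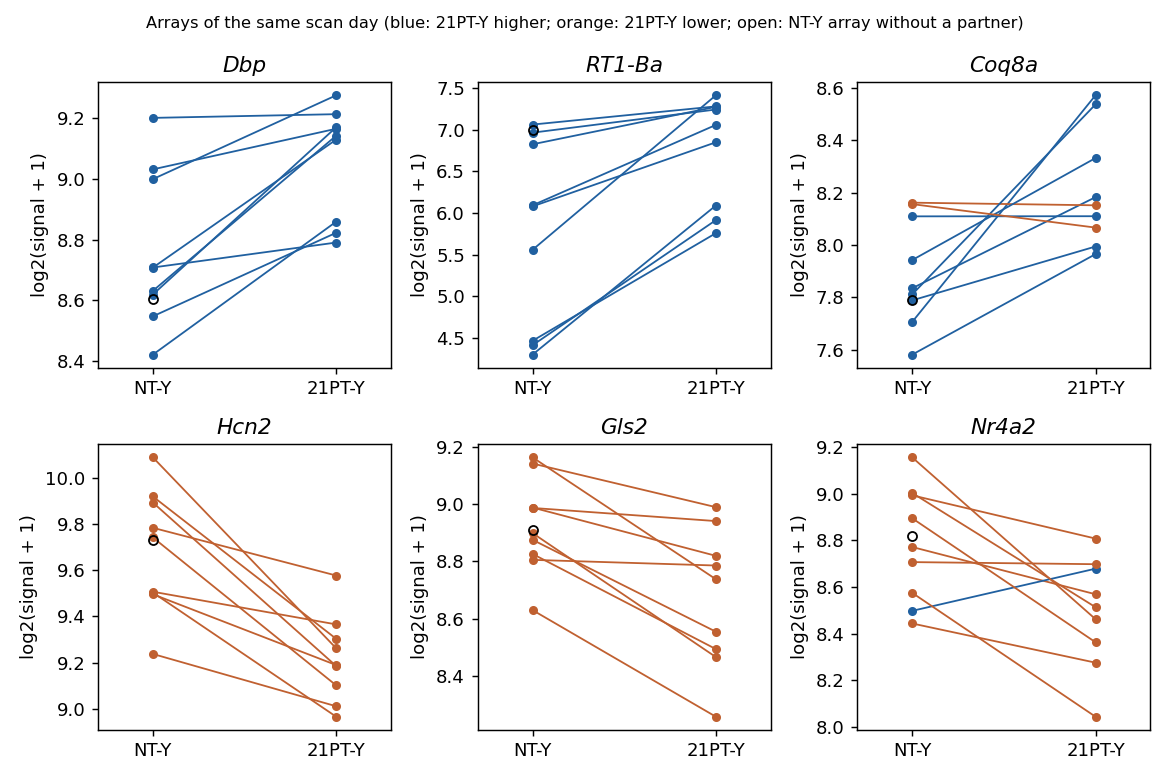
Log2 signal (y axis) of untrained and day 21 arrays scanned on the same day (x axis, joined by lines, 9 days) for 6 genes with small unadjusted p. Dbp and RT1-Ba were higher at day 21 on all 9 days and Hcn2 and Gls2 lower on all 9. Of all tested probe sets 10 (0.0964%) were higher and 11 (0.106%) lower on all 9 days. The 3 lowest untrained RT1-Ba arrays, at 4.30 to 4.47, were those of chip lot 1.

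Stress and metabolic genes at day 21 lay near untrained levels. Of 25 measured glucocorticoid response genes 15 were above 0 with a median of 0.01, while the list's median had been 0.09 on day 5. Fkbp5, a cochaperone of the glucocorticoid receptor, had a log2 level of 8.39 to 8.87 (median 8.68) in untrained rats, 8.55 to 9.37 (9.06) on day 5 and 8.41 to 9.15 (8.72) at day 21. Its day 21 difference was 0.07 ± 0.09. Sgk1, a kinase induced by glucocorticoids, differed by 0.27 ± 0.17 (-0.22 with the module term), and 21PT-Y arrays reached 11.5 where untrained arrays ended at 10.9. Nfkbia, the inhibitor of NF-kappaB, differed by 0.34 ± 0.20 and Nr3c1, the receptor itself, by -0.15 ± 0.08. Hsd11b1, which regenerates active glucocorticoid, was the 1 member with an unadjusted p under 0.05 (-0.12 ± 0.05). Among 37 heat shock and chaperone genes 14 were above 0. Hspa4, a partner of Hsp70, differed by 0.22 ± 0.09 and Dnajb9, a chaperone of the endoplasmic reticulum, by -0.19 ± 0.08. Herpud1, of the same compartment's stress response, differed by 0.15 ± 0.07.

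Lipid, antioxidant and energy genes held few small p-values. Of 28 measured genes of cholesterol and fatty acid synthesis 20 were above 0 with a median of 0.04 that turned to -0.08 with the module term, and 2 had an unadjusted p under 0.05. These were Fads2, a fatty acid desaturase, at 0.17 ± 0.08, and Ebp, a sterol isomerase, at 0.19 ± 0.10, which was 0.11 without 21PT-Y replicate 8 (unadjusted p = 0.23). Of 34 antioxidant genes Nqo1, a quinone reductase, differed by 0.22 ± 0.10 and Prdx6, a peroxiredoxin, by -0.14 ± 0.07. Slc6a9, a glycine transporter, differed by 0.21 ± 0.09, and by 0.16 and 0.17 at its other probe sets. The 64 measured genes of oxidative phosphorylation lay between -0.09 and 0.11 with a median of 0.01, and the 38 of the cytosolic ribosome between -0.13 and 0.12 with a median of -0.0037. In these 2 lists 0 members had an unadjusted p under 0.05.

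Glia, vessel and progenitor genes gave no passing member. Of 18 measured microglia genes 3 were above 0, with a median of -0.04 that turned to 0.05 with the module term. Itgam, the CD11b integrin of microglia, differed by -0.60 ± 0.25 at a dim probe set, with levels of 5.53 to 7.53 (median 7.04) untrained and 4.27 to 7.21 (6.84) at day 21; without 21PT-Y replicate 7 the difference was -0.34 (unadjusted p = 0.14). Vessel and pericyte genes had a median of -0.10 in 15 genes with 3 above 0, and of -0.033 without 21PT-Y replicate 3. Flt1, a VEGF receptor, differed by -0.31 ± 0.16. Blood cell genes had a median of 0.17 in 3 genes. Of 11 choroid plexus and ependyma genes 10 were above 0, with a median of 0.08, and their part in other values was not tested. Of 21 oligodendrocyte and myelin genes 15 were above 0 with a median of 0.04, and of 28 astrocyte genes 16 with a median of 0.0027. Hes5 and Sox2, transcription factors of neural progenitors, differed by -0.29 ± 0.14 (0.053 with the module term) and -0.36 ± 0.21 (-0.21 without 21PT-Y replicate 2), with second probe sets too dim for the test at 0.21 and -0.06. Markers of dentate granule cells had a median of -0.02 in 7 genes and those of CA2 and CA3 a median of 0.04 in 10.

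**Figure D4:**
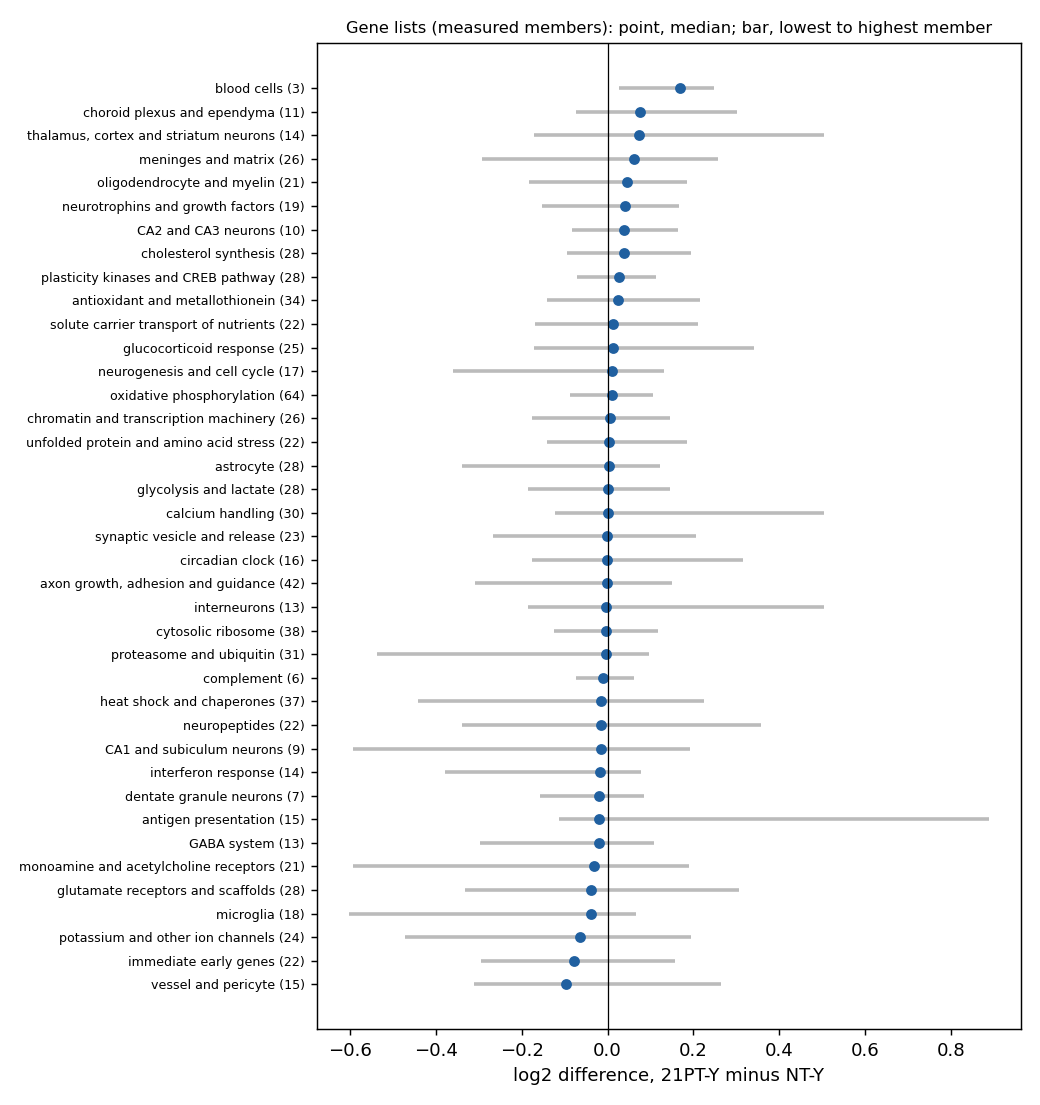
Log2 difference between day 21 and untrained young rats (x axis) for 39 gene lists (y axis, number of measured genes in brackets): points are medians and bars run from the lowest to the highest member. Medians lie between -0.10 and 0.17, beside 0.00017 over all tested probe sets.

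A list from rats of another age was also followed. In aged rats 16 probe sets (0.154%) from 15 genes passed on day 5 against untrained aged rats, 12 higher (0.116%) and 4 lower (0.0386%). These arrays are in neither young group and enter the young comparison through the shared variance of the fit. With module as a term 3 of the 16 passed, and the differences were 0.62 to 1.08 times those without it. In young rats at day 21, 0 of these 16 probe sets passed, 1 had an unadjusted p under 0.05, and their differences lay between -0.17 and 0.23. The 1 was Ptp4a3, a tyrosine phosphatase, which differed by 0.59 on day 5 in aged rats (adjusted p = 5.64e-05) and by 0.23 ± 0.11 in young rats at day 21. It ran from 8.37 to 9.32 (median 8.99) in untrained and from 8.85 to 9.41 (9.05) in trained young rats. Gjb6, the connexin 30 of astrocytes, differed by 0.49 in aged rats on day 5 (adjusted p = 0.00018) and by -0.17 ± 0.10 in young rats at day 21. Slc2a1, a glucose transporter of brain capillaries, had 0.32 (adjusted p = 0.0114) and -0.03 ± 0.08, and Lpl, lipoprotein lipase, -0.33 (adjusted p = 0.0388) and 0.09 ± 0.09. Pnpla2, the triglyceride lipase, had 0.30 and -0.01, Bag3, a cochaperone, 0.29 and -0.04, Plcl1 0.25 and -0.05, Atxn2l 0.39 and -0.06, C20h6orf89 -0.39 and -0.06, and Spetex2l2 -0.19 and 0.0040.

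**Figure D5:**
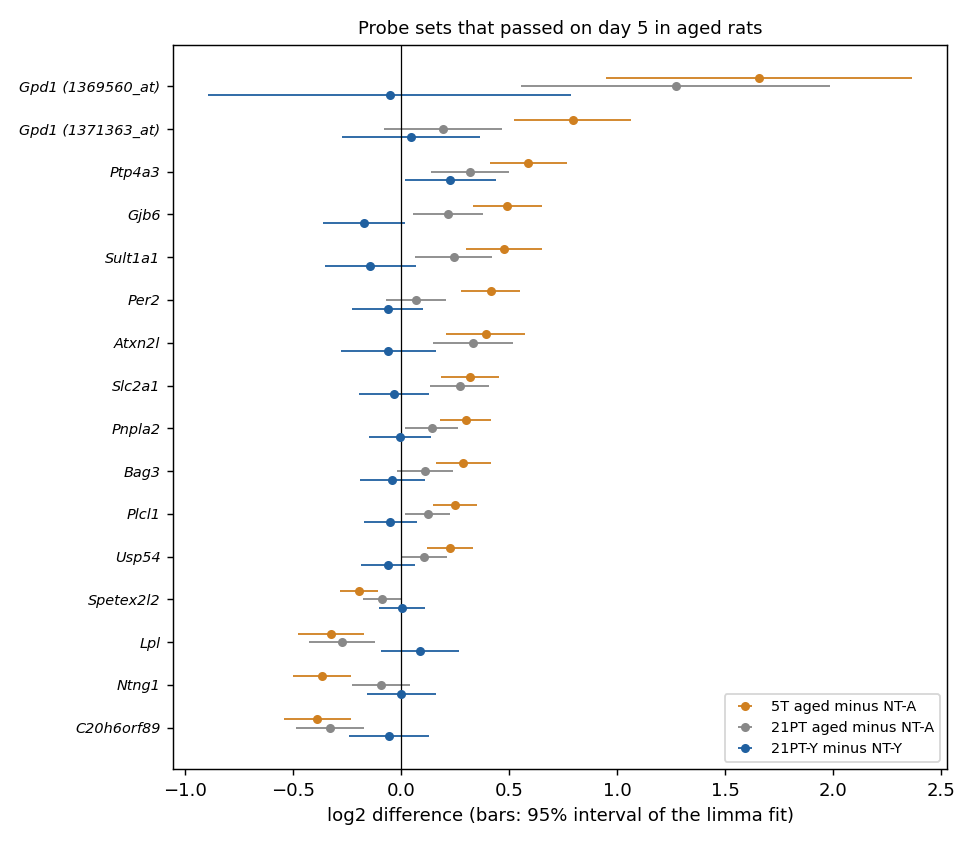
Log2 differences with 95% intervals (x axis) of the 16 probe sets that passed on day 5 in aged rats (y axis): aged rats on day 5, aged rats at day 21 and young rats at day 21. Both aged comparisons share the untrained aged arrays; in young rats the differences lie between -0.17 and 0.23.

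Aged rats at day 21, 19 animals with and without a maze deficit in equal weight, were compared with 10 untrained aged rats, and 0 probe sets passed (0%, limma), with 575 at an unadjusted p under 0.05 (5.54%). The 5 genes of smallest p with higher values in aged rats had log2 differences of 0.46 for Iars1, 0.34 for Dhrs11, 0.28 for Itih3, 0.27 for Slc2a1 and 0.27 for Inpp5f. In young rats the same genes had -0.03, -0.01, 0.05, -0.03 and -0.01. With lower values in aged rats were C20h6orf89 at -0.33, Pxdn at -0.28, Mrpl30 at -0.21, Lpl at -0.27 and Sos1 at -0.14, beside young values of -0.06, 0.12, -0.10, 0.09 and 0.04.

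The young change minus the aged change was tested directly, and 0 probe sets passed (0%, limma), with 402 at an unadjusted p under 0.05 (3.88%). Smallest p on the side higher in young rats belonged to Pxdn, a matrix peroxidase, at 0.41, Madcam1 at 0.56, Lpl at 0.36, Rab22a at 0.30 and Tpm1 at 0.42. On the lower side stood Prdx6 at -0.33, Enah, an actin regulator, at -0.34, Fn1, fibronectin, at -0.74, Ccdc117 at -0.78 and Gjb6 at -0.39. Prdx6 differed by -0.14 in young and by 0.19 in aged rats, the young value being -0.071 without 21PT-Y replicate 6, and Gjb6 by -0.17 and 0.22. Other Tpm1 probe sets had young differences from -0.23 to 0.11, and a second Rab22a probe set one of -0.17 beside 0.09, so the values of both genes are uncertain.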

How the data were processed

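Affymetrix RAE230A arrays measured RNA of 1 rat each. Signal values were computed by the authors with the MAS5 algorithm of GCOS 1.1, per the submitters' processing notes, and the deposited intensity is linear and scaled to one mean. After removal of 57 controls from 15923 probe sets, 12783 had a single symbol in the platform annotation, while 312 had several and 2771 had none. Tests were limited to the 10371 probe sets with signal over the 40th percentile of the same array in 9 or more arrays. To the deposited signal 1 was added and log2 taken; limma 3.58.1 under R 4.3.3 fitted 8 group means to 78 arrays, with an eBayes trend, and a Benjamini-Hochberg adjusted p under 0.05 counted as passing. The number of arrays limits precision. Latencies in s are the authors' deposited animal values. Simulated data were used to test the fit.

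Named genes were the 10 of smallest p in each direction, up to 4 of smallest p in each list, Arc, Egr1, Fos, Bdnf and Homer1, and 5 in each direction for both comparisons with aged rats at day 21. A list took the brightest probe set of each gene. Members and lists were chosen with earlier results of these data known. Fluidics module, chip lot and scan day came from the deposited array records. Normalization, pseudocount, filter, these batches and left-out arrays were varied.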

Additional observations from a re-analysis of the deposited data

Results flagged for a closer look

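Single arrays stood apart from the rest of their group in 20 of 276 sets of log2 signals (92 probe sets in the 3 young groups), where chance gives about 1 in 20. In the untrained group these were Fos (6.65, others 7.45 to 8.25), Nr1d2 (9.95, others up to 9.67), Hspb1 (4.49, others from 5.76), Itgam (5.53, others from 6.86), Sox2 (6.08), Pxdn (8.43), Iars1 (8.88) and Atxn2l (8.98). On day 5 they were Hes5 (6.97), Grb14 (8.88, above the others) and Ccdc117 (6.19). At day 21 they were Fos (6.24, others from 7.30), Htr1a (4.45, others from 6.37), Ebp (8.19, others up to 7.66), RT1-Bb (3.84), Usp54 (9.50), Kif26b (8.97, above the others), Grb14 (7.98), Tpm1 (7.52) and Prdx6 (10.0). Replicate 9 of the day 21 group gave 4 of these, for Fos, Usp54, Grb14 and Tpm1. It was the 1 array of that group in fluidics module 2 and had animal code letter N and scan day 10. The untrained array that stood apart for Fos, NT-Y replicate 6, had the same letter and scan day. Whether these records bear on the values was not tested.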

How the results depend on the processing

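The count of 0 passing probe sets in the day 21 comparison of young rats held in all 33 alternatives: 14 other settings, with 147 to 437 at an unadjusted p under 0.05, and 19 in which 1 array of either group was left out (196 to 374). The 147 came from bright probe sets only and the 437 from no filter, so other numbers of probe sets were tested there. The rest of the settings gave 181 to 370. Without 1 array at a time the counts ran from 5 to 8 for day 5 against untrained young rats, from 6 to 11 for day 21 against day 5, from 16 to 18 for aged rats on day 5, and stayed 0 in the other comparisons. Replicate numbers followed the scan day in part: 5 of the 9 same-numbered pairs of day 21 and untrained arrays shared a day. Over these 9 pairs the correlations of deviations ran from -0.24 to 0.36, 5 of them over 0.1. In 3 pairs the arrays correlated best with their own number. Over the 9 same-day pairs the correlations ran from -0.14 to 0.35, and 3 were best matches. Whether the numbers mark a pairing beyond the scan day was not tested. With the replicate block 0 probe sets passed for young rats at day 21, 7 on day 5 and 13 between day 21 and day 5; it gave 27 for aged rats on day 5, as the scan day block gave 29. The fluidics module term left 0 on day 5 in young rats, 3 between day 21 and day 5 and 3 on day 5 in aged rats. Only probe sets above the array median in every array gave 4, 6 and 10 for these 3 comparisons, fewer being tested. The letter of the animal code gave 9 for aged rats on day 5. The actin covariate gave 6 between day 21 and day 5, 33 for aged rats on day 5 and 1 for aged rats at day 21 (Itih3), where leaving out 5T-AI replicate 4 also gave 1 (Ptpn18). Array weights with robust variance gave 17 and 33. The causes were not tested. Of 92 probe sets followed, none passed at day 21 in young rats in any setting, and 26 changed sign, with most of these values near 0. Under quantile normalization these were Pnpla2 (0.0018), Dhrs11 (0.0031) and Spetex2l2 (-0.0011). Per1 turned to -0.014 with the replicate block, -0.020 with scan day, -0.0088 with chip lot, -0.16 with the letter, -0.056 with the Gapdh and -0.069 with the actin covariate. With the module term Egr1 was -0.21, Sgk1 -0.22, Bag3 0.036, Hes5 0.053, Ntng1 -0.093, Cd74 -0.075, Gpd1 -0.17, Rab22a -0.027, Dhrs11 0.19, Itih3 -0.042, C20h6orf89 0.040, Atxn2l 0.19 and Spetex2l2 -0.094. With the letter Egr1 was -0.054, Nr4a3 0.024, Bdnf 0.074, Gria2 0.027, Calb2 -0.014, Bag3 0.011, Pnpla2 0.016, Iars1 0.066, Itih3 -0.036, Inpp5f 0.022 and Spetex2l2 -0.027. With the Gapdh covariate Ntng1 was -3.48e-05, Cd74 -0.019 and the dim Gpd1 probe set 0.15. With the actin covariate Bdnf was 0.017, Ntng1 -0.013, Cd74 -0.050, Gpd1 -0.014 and 0.26 (dim probe set), Inpp5f 0.00024 and Spetex2l2 -0.0035. With array weights Gpd1 was -0.0023, Dhrs11 0.022 and Spetex2l2 -0.0056. Without 1 array the values that turned ran from -0.26 to 0.037 for Fos, -0.060 to 0.13 for Per1, -0.068 to 0.00041 for Slc2a1, -0.022 to 0.023 for Ntng1, -0.21 to 0.13 for RT1-Bb, -0.0041 to 0.14 for RT1-Da, -0.027 to 0.088 for Cd74, -0.0045 to 0.077 and -0.32 to 0.21 for Gpd1, -0.033 to 0.014 for Pnpla2, -0.12 to 0.016 for Iars1, -0.051 to 0.023 for Dhrs11, -0.053 to 0.049 for Inpp5f and -0.014 to 0.019 for Spetex2l2. The medians of 6 lists moved by more than their spread in some setting; beside those given above, that of solute carriers was -0.029 with the letter. Dim probe sets such as those of RT1-Ba, Itgam and Htr1a carry the widest errors.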
